A study of Mus musculus with 16 samples.

Results

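The SOCS family was followed in murine lung group 2 innate lymphoid cells (ILC2s), tissue-resident lymphocytes that make type 2 cytokines. The 8 members, Cish and Socs1 to Socs7, were found by matching the Ensembl identifiers of the count table to gene symbols, and they are 8 of the 51912 genes in that table. ILC2s of WT mice or of Pac1-/- mice, which lack the phosphatase encoded by Dusp2 in all cells, were kept for 4 hours with IL-7. One set had nothing else, another had IL-33 added, and the last sets had IL-33 together with either CGRP or NMU, which are neuropeptides. IL-7 and IL-33 were each used at 100 ng/mL, and CGRP and NMU each at 500 ng/mL, so every group received IL-7. Both genotypes were on the C57BL/6J background, from mice of 6 to 8 weeks. The study's culture method expands sorted lung ILC2s for 1 to 2 weeks with IL-2 and IL-7 and then removes both cytokines, so these are cultured rather than freshly isolated cells. About 500 ILC2s went into each of the 16 libraries, 2 for each of the 8 groups, and the labels do not say whether the 2 libraries came from separate animals or cultures. The p-values below therefore measure only the spread between these libraries, which may be technical. The genes the results turn on lie, on GRCm38 with GENCODE M21 gene models, at chr10:95385362-95417180 on the minus strand (Socs2), chr9:107296026-107302784 on the plus strand (Cish) and chr17:87107679-87137839 on the plus strand (Socs5). In the text each treatment is named by the last factor added.

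Cytokines such as IL-2, IL-4, IL-7, IL-9 and IL-13 signal through receptor-bound JAK kinases, which phosphorylate STAT transcription factors. SOCS genes encode the inhibitors of this pathway, and several of them are themselves STAT targets, which closes a negative feedback loop. CIS (Cish) and SOCS1 to SOCS3 bind phosphorylated receptors or JAKs through an SH2 domain, and all family members carry a SOCS box that recruits a ubiquitin ligase built on elongins and cullin 5. CIS and SOCS2 are the members best known as STAT5 targets, SOCS1 is the member tied to interferon and JAK inhibition, SOCS3 blocks signals of the gp130 receptors, and SOCS4 to SOCS7 have less settled roles, with growth factor receptors among the targets described. In ILC2s, IL-7 and IL-2 act through STAT5, IL-33 acts through MyD88 and not through a JAK, and CGRP and NMU act through G protein-coupled receptors, so only IL-7 among the added factors uses the JAK-STAT pathway directly.

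Because STAT factors bind a short palindromic motif, the promoter windows of the members best known as feedback inhibitors are shown first. RefSeq windows on GRCm38.p6, each of 300 bases from 250 bases before the start site to 50 after it, were listed for 4 of the 8 members (Cish, Socs1, Socs3 and Socs4). The windows of Cish, Socs1 and Socs3 are given 5′ to 3′ on the strand of the gene, with capitals marking each match to TTCNNNGAA, the STAT motif with a spacing of 3 bases. They lie at chr9:107296409-107296708 on the plus strand, chr16:10785487-10785786 on the minus strand and chr11:117969317-117969616 on the minus strand.
Cish: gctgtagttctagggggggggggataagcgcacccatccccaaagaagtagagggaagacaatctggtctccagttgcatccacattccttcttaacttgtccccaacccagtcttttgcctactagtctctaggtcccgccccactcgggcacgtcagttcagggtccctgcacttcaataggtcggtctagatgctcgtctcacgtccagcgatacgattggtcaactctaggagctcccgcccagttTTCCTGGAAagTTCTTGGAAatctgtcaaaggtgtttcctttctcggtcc
Socs1: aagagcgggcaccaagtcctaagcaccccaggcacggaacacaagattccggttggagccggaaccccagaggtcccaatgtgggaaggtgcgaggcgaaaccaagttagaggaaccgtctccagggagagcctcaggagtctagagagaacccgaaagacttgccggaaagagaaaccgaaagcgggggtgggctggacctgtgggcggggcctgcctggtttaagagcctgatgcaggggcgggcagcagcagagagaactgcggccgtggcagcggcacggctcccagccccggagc
Socs3: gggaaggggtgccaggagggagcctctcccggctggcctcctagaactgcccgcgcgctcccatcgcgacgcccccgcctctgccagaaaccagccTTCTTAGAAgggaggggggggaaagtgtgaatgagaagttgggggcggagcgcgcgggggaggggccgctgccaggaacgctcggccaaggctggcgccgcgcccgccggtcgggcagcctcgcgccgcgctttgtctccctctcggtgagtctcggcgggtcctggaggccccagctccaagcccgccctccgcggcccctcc
The Cish window held 2 matches, TTCCTGGAA from the first base of the RefSeq transcript and TTCTTGGAA from base 12. The Cish and Socs3 windows lie wholly inside the GENCODE gene models, so their RefSeq starts are not the outermost GENCODE starts. Positions here are counted from the RefSeq start. The Socs3 window held 1 match, TTCTTAGAA, whose first base lies 154 bases before the start. The Socs1 and Socs4 windows held none. Searched on both strands, TTCNNNGAA occurred in 8.29% of all 32817 windows, which is the frequency against which 2 of the 4 listed members should be read. The STAT motif with a spacing of 4 bases (6.94% of windows), the full CRE TGACGTCA (1.79%), the AP-1 motif TGANTCA (7.81%) and the kB motif (8.46%) had no match in any of the 4 windows. A match describes the letters in the window and is neither a bound site nor a cause.

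The libraries held between 6764992 and 15963357 counted reads, with a median of 11071278, so the floor used here, 3 counts, lay at 0.188 to 0.443 CPM, a unit in which counts are scaled to a fixed library total. No molecular identifiers were described, so this floor covers counting error only. Dusp2, the deleted gene, had 57 counts in WT IL-7 replicate 2, 29 in WT NMU replicate 1 and 0 in the other 14 libraries, so these counts do not separate the genotypes. All 10 ILC2 markers examined, Gata3 and Il1rl1 among them, were present in all 16 libraries, with a summed level of 10630 to 32160 CPM. Of the T cell markers, Cd8a was at 0 throughout, while Cd3g, at 29.8 to 256 CPM, and Cd3d, at 2.39 to 103 CPM, were present in all 16. The 5 T cell markers stood apart in the 4 IL-7 libraries, where they summed to 237 to 338 CPM, against 33.8 to 173 CPM in the others. The B cell markers Ms4a1 and Cd79a stood apart in the Pac1-/- CGRP libraries, Ms4a1 at 75.3 to 84.5 CPM and Cd79a at 17.5 to 21.6 CPM. In the WT CGRP libraries Ms4a1 was at 0 to 11.7 CPM and Cd79a at 0.623 to 4.50 CPM, and elsewhere they reached at most 3.01 and 6.15 CPM. The 3 epithelial markers summed to 308 and 171 CPM in the WT NMU libraries and to at most 83.3 CPM in the others, and the 6 myeloid markers to 123.5 and 39.7 CPM in the same libraries and to at most 15.96 CPM elsewhere. In bulk libraries, fewer cells of a type and less RNA per cell cannot be told apart.

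Per kilobase of merged exons, Socs2 and Cish were the leading SOCS transcripts of these ILC2s. Socs2 averaged 15.02 ± 8.37 CPM per kb and Cish 11.9 ± 5.58 CPM per kb (mean ± SD over 16 libraries). Socs2 ranked first in 11 libraries, Cish in 4 and Socs1 in 1. Socs4 (5.03 ± 1.96), Socs1 (5.01 ± 4.20) and Socs5 (3.32 ± 2.31 CPM per kb) followed, and these 3 neighbours differed by less than their SDs. Socs6 lay at 1.604 ± 1.32 CPM per kb, Socs7 at 0.381 ± 0.360 and Socs3 at 0.297 ± 0.428, the last 2 again within their spread. Socs3 was over the floor of 3 counts in 8 of the 16 libraries, Socs7 in 13, Socs6 in 15 and the other 5 members in 16. Dividing by the median transcript length instead left Socs2 and Cish first and moved Socs5 and Socs6 above Socs4 and Socs1, so the order below the leading pair rests on the length used.

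**Figure D1:**
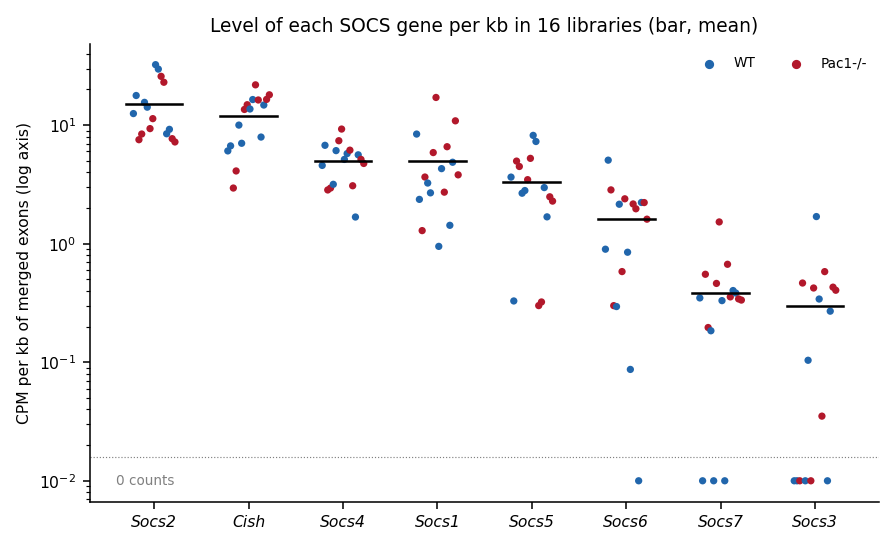
Level of each SOCS gene in TMM-scaled CPM per kb of merged exons on a log axis, with 1 point per library, coloured by genotype, and a bar at the mean of 16 libraries. Socs2 and Cish lie above 2.9 CPM per kb in every library, while Socs3 has 6 libraries with 0 counts, drawn under the dotted line.

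The spread between replicates set how much each member could show. The biological coefficient of variation that edgeR estimated was 0.227 for Socs2, 0.297 for Cish, 0.448 for Socs4, 0.590 for Socs5, 0.732 for Socs1, 1.09 for Socs6, 1.37 for Socs7 and 1.76 for Socs3, against a median of 0.961 over the 14979 genes tested. Socs2 and Cish thus had the tightest replicates of the family. Socs6 had 153 and 627 counts in the 2 WT IL-7 libraries and 0 and 227 counts in the 2 WT NMU libraries, and Socs3 had 55 and 9 counts in the 2 WT CGRP libraries. For Socs3, Socs6 and Socs7, apart from the means per kb over all libraries, levels are therefore given as counts, ranges or values of single libraries. None of these genes was called.

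All 8 members passed the filter on low counts and entered the test, edgeR's quasi-likelihood test over 16 libraries. A gene was called where its fold exceeded 1.5 and its p, adjusted by Benjamini-Hochberg over all genes, was under 0.05. The treatments were compared with the genotypes averaged, 4 libraries against 4.

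CGRP raised Socs2, and this was the only SOCS gene called in that comparison. Socs2, which encodes the inhibitor best known for restraining growth hormone and STAT5 signals, was at 148.5 and 135 CPM in the 2 WT libraries with IL-33 and at 89.2 and 108 CPM in the 2 Pac1-/- libraries. With CGRP it was at 309 and 283 CPM in WT and at 246 and 219 CPM in Pac1-/- ILC2s. The lowest CGRP library therefore lay above the highest IL-33 library. The mean rose from 120.3 ± 26.7 CPM to 264 ± 39.5 CPM (SD, n = 4 libraries each), a log2 fold change of 1.15 (SE 0.186, 95% interval 0.75 to 1.55, adjusted p = 0.00534). In this comparison 2.76% of all genes were called, 1.65% higher and 1.11% lower, and 1 of the 8 members. Groups of 4 and 4 libraries did not overlap for 9.71% of genes. The log2 rise was 1.06 (95% interval 0.49 to 1.63) within WT and 1.24 (0.67 to 1.81) within Pac1-/- ILC2s. The 3 mast cell and basophil markers moved with this result, summing to 42.8 to 77.9 CPM with IL-33 and to 79.3 to 190 CPM with CGRP. Most of that sum was Cpa3, at 42.4 to 74.0 CPM with IL-33 and 79.3 to 174 CPM with CGRP, while Mcpt8 was at 0 in 15 libraries and Fcer1a in 9. The 3 epithelial markers also separated, in the other direction, summing to 42.15 to 83.3 CPM with IL-33 and 11.2 to 25.1 CPM with CGRP. Epcam was at 39.45 to 80.9 CPM with IL-33 and 5.82 to 24.9 CPM with CGRP. The part of these markers, and of the B cell markers of the Pac1-/- CGRP libraries, in the Socs2 result was not tested.

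Socs2 was lower with NMU than with CGRP, and its difference between NMU and IL-33 did not pass the test. With NMU the 2 WT libraries were at 80.7 and 87.9 CPM and the 2 Pac1-/- libraries at 73.3 and 68.8 CPM, which is the tightest set of 4 among the treatments (77.7 ± 8.39 CPM, SD, n = 4). All 4 lay below all 4 CGRP libraries and below all 4 IL-33 libraries. Between NMU and CGRP, Socs2 fell by 1.76 on the log2 scale (SE 0.189, adjusted p = 0.000177), and again it was the only member called, where 5.47% of all genes were called, 2.84% higher and 2.63% lower with NMU, and 13.3% did not overlap. Against IL-33 the log2 fold change of Socs2 with NMU was -0.61 (SE 0.185, 95% interval -1.01 to -0.21, adjusted p = 0.401), which did not pass the test in edgeR and passed in DESeq2 (adjusted p = 0.0461). In that comparison 0.187% of genes were called, 0.154% higher and 0.0334% lower, none of them a member, and 4.35% of genes did not overlap. Markers of other cell types also differed with NMU. Cpa3 was at 44.4 to 75.9 CPM with NMU and 79.3 to 174 CPM with CGRP. The WT NMU libraries held the most epithelial markers (308 and 171 CPM) and myeloid markers (123.5 and 39.7 CPM). The epithelial sums of all 4 NMU libraries, at 35.5 to 308 CPM, lay above those with CGRP, at 11.2 to 25.1 CPM. The part of these markers in the Socs2 differences was not tested. The 4 IL-7 libraries, at 119 and 169.6 CPM in WT and at 71.9 and 80.3 CPM in Pac1-/- ILC2s, overlapped those with IL-33, and the log2 difference between these treatments was 0.17 (95% interval -0.22 to 0.57).

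Cish, which encodes CIS, an inhibitor induced by IL-2 and IL-7 that damps STAT5 activation, had its lowest levels with IL-7 alone. The IL-7 libraries were at 38.9 and 42.9 CPM in WT and at 18.9 and 26.4 CPM in Pac1-/- ILC2s. With IL-33 they were at 64.3 and 45.2 CPM in WT and at 87.1 and 95.5 CPM in Pac1-/- ILC2s, so every IL-33 library lay above every IL-7 library. The 5 T cell markers moved with this comparison without overlap, summing to 237 to 338 CPM with IL-7 and 33.8 to 159 CPM with IL-33. Most of that sum was Cd3g, at 160 to 256 CPM with IL-7 and 29.8 to 145 CPM with IL-33. Cd3d was at 74.0 to 103 and 3.67 to 14.02 CPM, and Cd3e overlapped, at 1.19 to 8.985 and 0 to 3.20 CPM. Cd8a was at 0 in 16 libraries and Cd4 in 15. The 3 epithelial markers also separated, summing to 14.2 to 40.96 CPM with IL-7 and 42.15 to 83.3 CPM with IL-33. Epcam was at 14.2 to 38.35 CPM with IL-7 and 39.45 to 80.9 CPM with IL-33. The part of these markers in the comparison was not tested. The log2 difference of Cish was 1.21 (SE 0.264, 95% interval 0.64 to 1.79, unadjusted p = 0.000502), and it did not pass the adjustment in edgeR (adjusted p = 0.235) although it did in DESeq2 (adjusted p = 0.00266). edgeR called 0.0334% of genes in this comparison, 0.00% higher and 0.0334% lower, and none of the 8 members. Groups did not overlap for 5.24% of genes. Cish was the only one of the 8 members with an unadjusted p under 0.05 here, as were 1480 of the 14979 genes.

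With CGRP, Cish was at 87.9 and 106 CPM in WT and at 140.5 and 105 CPM in Pac1-/- ILC2s. The level of 110 ± 22.1 CPM stood beside 73.0 ± 22.8 CPM with IL-33 (SD, n = 4), the groups overlapped, and the log2 difference of 0.62 (SE 0.261, adjusted p = 0.247) did not pass the test. With NMU, Cish was at 51.0 and 94.9 CPM in WT and at 106 and 116 CPM in Pac1-/- ILC2s, a log2 difference from IL-33 of 0.35 (95% interval -0.22 to 0.91) and from CGRP of -0.28 (95% interval -0.84 to 0.29). By mean level both genes were highest with CGRP, while Socs2 was lowest with NMU and Cish lowest with IL-7 alone. For Cish the CGRP libraries overlapped those with NMU and with IL-33. The Pac1-/- IL-7 libraries of Socs2, at 71.9 and 80.3 CPM, lay within its NMU range of 68.8 to 87.9 CPM.

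**Figure D2:**
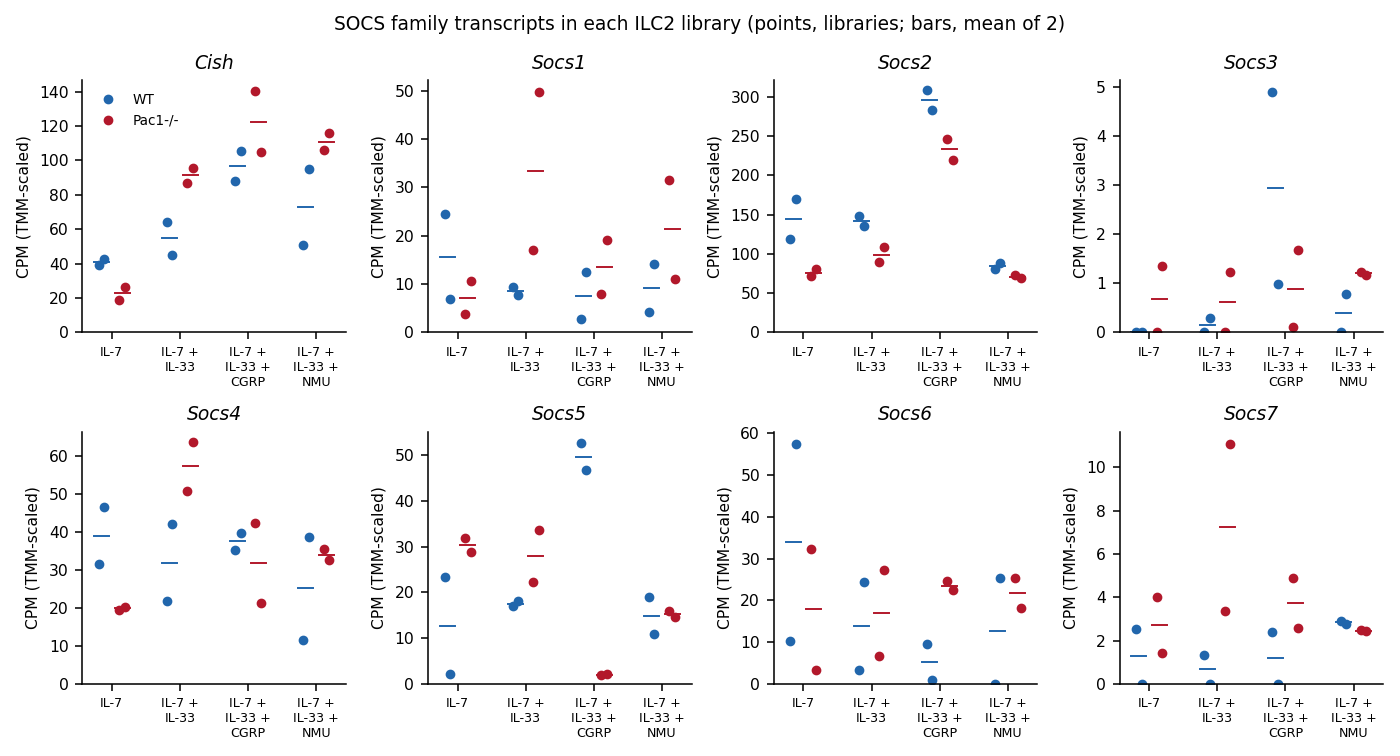
TMM-scaled CPM (linear axes from 0, scaled per gene) of the 8 members in each library by treatment, WT in blue and Pac1-/- in red, with bars at the mean of 2 libraries. The 4 Socs2 points with CGRP, between 219 and 309 CPM, lie above all others, and the Socs5 points of the Pac1-/- CGRP libraries lie near 2 CPM.

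Because both genes are read in the same library, the ratio of Socs2 to Cish counts does not depend on scaling. This ratio was chosen after the values were seen and is given without a test. With IL-7 alone it was 3.07 and 3.95 in WT and 3.80 and 3.04 in Pac1-/- ILC2s. With IL-33 it was 2.31 and 2.99 in WT and 1.02 and 1.13 in Pac1-/- ILC2s. With CGRP it was 3.51 and 2.68 in WT and 1.75 and 2.10 in Pac1-/- ILC2s, and with NMU it was 1.58 and 0.926 in WT and 0.692 and 0.594 in Pac1-/- ILC2s. The genotypes overlapped with IL-7 alone, and the Pac1-/- libraries lay below the WT libraries in each of the treatments with IL-33.

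**Figure D3:**
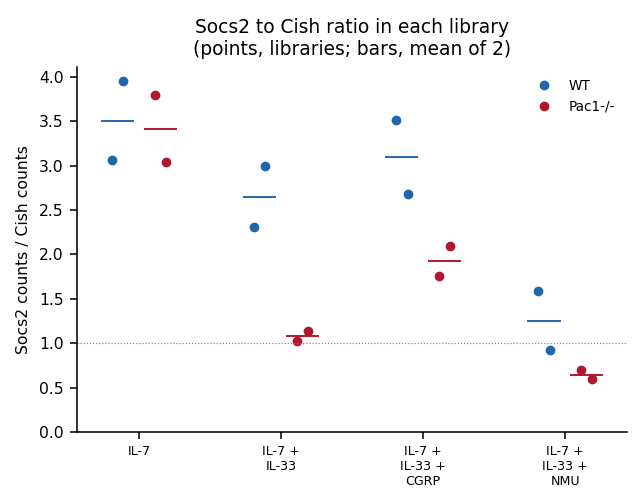
Ratio of Socs2 to Cish counts (linear axis from 0) in each library by treatment, WT in blue and Pac1-/- in red, with bars at the mean of 2 libraries and a dotted line at 1. The ratio lies between 3.04 and 3.95 in the 4 IL-7 libraries and between 0.594 and 1.58 in the 4 NMU libraries.

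Socs1, the direct JAK inhibitor of the family, was called in no treatment comparison, and its replicates varied more than those of Socs2 and Cish. It ranged from 3.75 to 24.5 CPM with IL-7, from 7.81 to 49.8 CPM with IL-33, from 2.76 to 19.1 CPM with CGRP and from 4.16 to 31.6 CPM with NMU (n = 4 libraries each). The log2 difference between IL-33 and IL-7 was 0.68 (95% interval -0.93 to 2.28) and between CGRP and IL-33 it was -0.74 (95% interval -2.35 to 0.87). Socs3, the inhibitor of gp130 cytokines, had 0 counts in WT libraries with IL-7 and at most 17 counts in any library other than WT CGRP replicate 1, which had 55.

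Of the members with less settled roles, Socs4 ranged from 11.6 to 63.8 CPM over the 16 libraries. Its log2 difference was 0.62 (95% interval -0.30 to 1.53) between IL-33 and IL-7, -0.31 (-1.22 to 0.60) between CGRP and IL-33 and -0.55 (-1.46 to 0.37) between NMU and IL-33. Socs5, described as an inhibitor of IL-4 receptor and EGF receptor signals, averaged 22.8 ± 7.61 CPM with IL-33, 25.8 ± 27.6 CPM with CGRP and 15.1 ± 3.43 CPM with NMU (SD, n = 4). With CGRP its SD exceeded its mean, and the genotypes did not overlap. Socs6 ranged from 0 to 57.5 CPM and Socs7 from 0 to 11.1 CPM, and neither was called in any comparison.

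**Figure D4:**
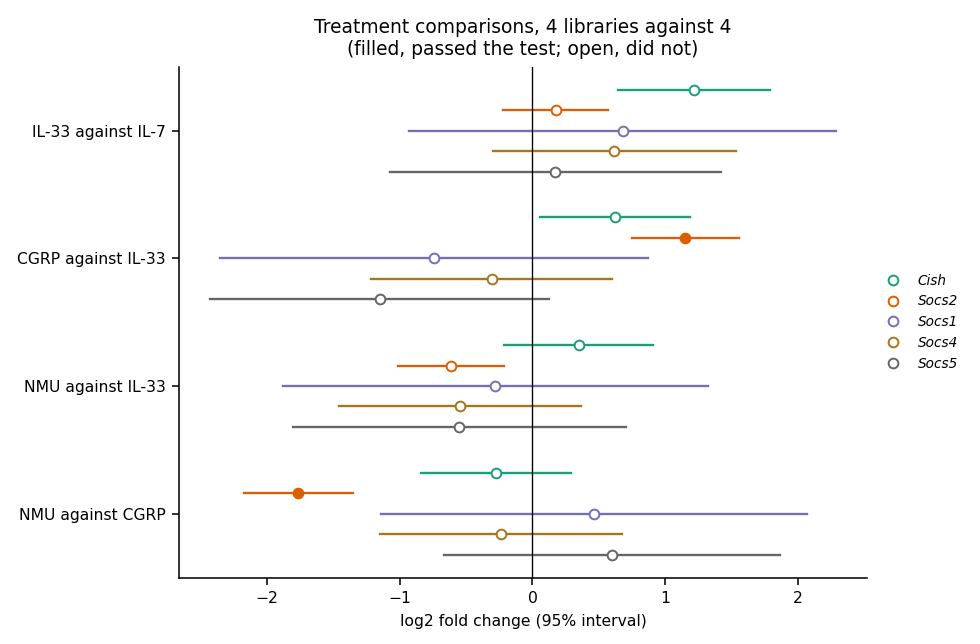
Log2 fold change with its 95% interval for 5 members in the 4 treatment comparisons, genotypes averaged (4 libraries against 4, edgeR fit over 16 libraries), with filled symbols for values that passed the test. Socs2 is the only filled symbol, at 1.15 for CGRP against IL-33 and at -1.76 for NMU against CGRP.

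The rest of the pathway was read from fixed lists in the same fit, and most of its calls were cytokines and receptors. None of the 4 JAK kinases, 7 STAT factors or 7 SOCS box ligase partners was called in any of the 4 treatment comparisons. In CGRP against IL-33, their adjusted p-values were 0.143 or more, and the log2 difference was positive for 1, 2 and 2 members of the 3 lists, with medians of -0.37, -0.39 and -0.15 beside -0.09 over all genes. Named by the order of their p-values, and not because they passed, were Jak1 (-0.69, 0.143), Tyk2 (-2.15, 0.368), Stat6 (-1.06, 0.170), Cul5 (-0.90, 0.228) and Rbx1 (-0.31, 0.555), where each bracket gives the log2 difference and then the adjusted p. Of the 10 other JAK-STAT inhibitors, 1 was called, Ptprc, which encodes the phosphatase CD45, higher with NMU than with CGRP by 0.73 on the log2 scale (adjusted p = 0.0239).

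Among the 11 tested cytokines that signal through JAK and STAT, 4 rose and 2 fell with CGRP against IL-33. Il2, whose product acts through STAT5, was at 2.20 to 6.03 CPM with IL-33, at 224 to 298 CPM with CGRP and at 30.1 to 267 CPM with NMU, and it rose in both comparisons (log2 fold change 6.34 with CGRP, adjusted p = 6.47e-05, and 5.10 with NMU, adjusted p = 0.00120). Il3, which shares the beta common receptor, was listed at 0 in all IL-7 and IL-33 libraries and reached 33.2 to 133 CPM with CGRP. Il4 rose by 3.66 with CGRP and by 3.21 with NMU on the log2 scale, and Csf2 by 1.11 and 1.47. These are averages over the genotypes, and the NMU response of Csf2 was larger in Pac1-/- ILC2s by 2.78. That difference was not called by edgeR (adjusted p = 0.2645) but was by DESeq2 (adjusted p = 4.57e-07). Unscaled Csf2 counts with NMU were 12224 and 9482 in WT, the libraries with the fewest reads, and 67024 and 42960 in Pac1-/-. With IL-33 they were 14532 and 16856 in WT and 13720 and 7732 in Pac1-/-. Il9 fell by 5.41 with CGRP and rose by 4.28 with NMU, and Il13 fell by 1.77 and rose by 2.79. With NMU, 7 of the 11 rose and none fell, Il5 included (log2 fold change 1.61, adjusted p = 0.000137). The median of the list was 0.53 with CGRP and 1.64 with NMU, beside -0.09 and -0.08 over all genes.

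Of the 18 tested cytokine receptor chains, 1 was called with NMU against IL-33. This was Il7r, the receptor chain for the IL-7 given to all groups, at 598 to 933 CPM with IL-33 and at 299 to 427 CPM with NMU, which fell by 0.997 on the log2 scale (SE 0.174, adjusted p = 0.0377). Between NMU and CGRP, Il7r fell by 1.32 and Il10ra by 1.43, and Il2ra, the high-affinity chain for IL-2, rose by 1.18 (adjusted p = 0.000261). None of the 18 was called with CGRP against IL-33, where Il2ra had a log2 difference of -0.55 (adjusted p = 0.0408), under the fold cutoff, and Il2rg of -0.91 (adjusted p = 0.187). Il2ra is also 1 of the 11 STAT5 targets, of which Bcl2 fell by 1.88 between NMU and CGRP (adjusted p = 0.00951) and none was called against IL-33. Of the 6 tested STAT3 targets, Junb rose by 3.10 with CGRP (adjusted p = 0.000248) and Batf fell by 1.74 (adjusted p = 0.00691), and between NMU and CGRP, a comparison that shares the CGRP libraries, Batf rose by 2.13 while Junb fell by 3.63 and Maf by 1.43. The receptor genes of the stimuli held 1 call against IL-33, Calcrl, a subunit of the CGRP receptor, which rose by 2.52 with NMU (adjusted p = 0.00853). Between NMU and CGRP, Calcrl rose by 1.68 and Il1rl1, which encodes the IL-33 receptor, fell by 1.11.

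The genes whose pattern was most like Socs2 over the 16 libraries, out of 4876 genes averaging 20 CPM or more, were Elf1 (Pearson r = 0.905), Ythdc1 (0.887) and Rora (0.879). Elf1, an ETS transcription factor, was at 156 to 206 CPM with IL-33, 334 to 518 CPM with CGRP and 124 to 172 CPM with NMU. Its NMU libraries overlapped those with IL-33, which the NMU libraries of Socs2 did not. For Cish the nearest were Ivns1abp (0.822), Tox4 (0.815) and Fam107b (0.811), for Socs1 they included Sdc4 (0.759) and Pcbp1 (0.739), and for Socs3 Ankrd17 (0.811), Ubl3 (0.757) and Cep120 (0.737). These are descriptions over libraries that share treatments, and the Socs3 values rest on few counts. Cish and Socs2 themselves had r = 0.361 over the 16 libraries.

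No member was called between the genotypes by edgeR's quasi-likelihood test. With the treatments averaged, 0.113% of genes were called, 0 of them members. In Pac1-/- against WT within a treatment, the share of genes called was 0.00668% with IL-7, 0.00668% with IL-33, 0.107% with CGRP and 0.0200% with NMU, and again 0 members. At an unadjusted p under 0.05 stood Socs2 over treatments, Cish and Socs2 with IL-7 and Socs5 with CGRP, and DESeq2 called 1 of these, Socs5 with CGRP.

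Socs2 was lower in Pac1-/- than in WT ILC2s in all 4 treatments without overlap, as its library values above show, a pattern shared by 22 of the 14979 genes tested (0.147%). With the treatments averaged, its log2 difference was -0.51 (SE 0.130, 95% interval -0.79 to -0.23, unadjusted p = 0.00176). It did not pass the adjustment in edgeR (adjusted p = 0.372), and its fold of 0.702 lies within the fold cutoff. DESeq2 gave an adjusted p of 0.0179 for the same difference, also within the fold cutoff. By treatment, the log2 difference was -0.93 with IL-7, -0.52 with IL-33, -0.35 with CGRP and -0.25 with NMU, each with an adjusted p of 0.688 or more. Marker sums also separated the genotypes in some treatments. Mast cell and basophil markers with CGRP were at 151 and 190 CPM in WT and 79.3 and 83.9 CPM in Pac1-/-. Epithelial markers with NMU were at 308 and 171 CPM in WT and 35.5 and 54.1 CPM in Pac1-/-. With IL-7 both sums overlapped, and B cell markers with CGRP were higher in Pac1-/-. The part of these markers was not tested. The CGRP response of Socs2 differed between the genotypes by 0.18 on the log2 scale (95% interval -0.62 to 0.97), the NMU response by 0.28 (-0.52 to 1.07) and the IL-33 response by 0.40 (-0.392 to 1.196). None of these 3 differences passed the test.

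Cish did not keep one direction between the genotypes, and none of its genotype differences passed the test. The Pac1-/- libraries lay below WT with IL-7 (log2 difference -0.85, 95% interval -1.66 to -0.05) and above WT with IL-33 (0.74, -0.06 to 1.54) and with NMU (0.60, -0.19 to 1.40), and overlapped WT with CGRP (0.34, -0.45 to 1.14). The mean over treatments was 0.21 (95% interval -0.19 to 0.61). Over all pairs of member and treatment, the Pac1-/- libraries lay above WT in 10, below in 8 and overlapped in 14. The share over all genes within a treatment was not computed, so these counts are not read as a trait of the family. The IL-33 response was 0.42 on the log2 scale (95% interval -0.38 to 1.22) in WT and 2.01 (1.18 to 2.84) in Pac1-/- ILC2s, and the difference of 1.59 (SE 0.525, unadjusted p = 0.00962) did not pass the adjustment (adjusted p = 0.930). None of the 3 comparisons of a response between genotypes had a call in edgeR, that is 0.00% of genes each, while 726, 905 and 813 genes had an unadjusted p under 0.05 for IL-33, CGRP and NMU, and DESeq2 called 16, 120 and 24. The IL-33 response difference was positive for 6 of the 8 members and negative for Socs3 and Socs5. For Socs1 and Socs4 it was 3.08 (95% interval -0.19 to 6.34) and 1.82 (-0.02 to 3.65), neither past the test. Socs1 reached 17.1 and 49.8 CPM in the 2 Pac1-/- libraries with IL-33, against 9.45 and 7.81 CPM in WT (log2 difference 1.95, 95% interval -0.39 to 4.29), and with the treatments averaged its log2 difference was 0.72 (-0.42 to 1.86).

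Socs5 gave the widest separation of the genotypes in the family. With CGRP it was at 52.6 and 46.7 CPM in WT, from 591 and 426 counts, and at 1.93 and 2.07 CPM in Pac1-/- ILC2s, from 19 and 16 counts. The log2 difference was -4.63 (SE 0.959, 95% interval -6.70 to -2.56, unadjusted p = 0.000328), which edgeR did not call (adjusted p = 0.112) and DESeq2 did (adjusted p = 3.94e-05). The same low level, 2.11 CPM from 23 counts, was seen in WT IL-7 replicate 2, whose partner library had 351 counts, so Socs5 also split between replicates of 1 group. With IL-33 it was at 17.1 and 18.0 CPM in WT and at 22.3 and 33.7 CPM in Pac1-/- ILC2s, and from there to CGRP its log2 change was 1.499 (95% interval -0.30 to 3.30) in WT and -3.80 (-5.80 to -1.80) in Pac1-/- ILC2s. The difference of these responses was -5.30 (SE 1.24, adjusted p = 0.442 in edgeR and 0.00323 in DESeq2), and with the genotypes averaged the CGRP response was -1.15 (95% interval -2.43 to 0.13, adjusted p = 0.345). With the treatments averaged, its genotype difference was -0.67 (95% interval -1.56 to 0.22). The B cell markers moved with this result, at 75.3 to 84.5 CPM for Ms4a1 and 17.5 to 21.6 CPM for Cd79a in the Pac1-/- CGRP libraries with low Socs5, but the low Socs5 library of WT IL-7 had 0.275 CPM of Ms4a1 and 2.20 CPM of Cd79a. Their part in the result was not tested.

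**Figure D5:**
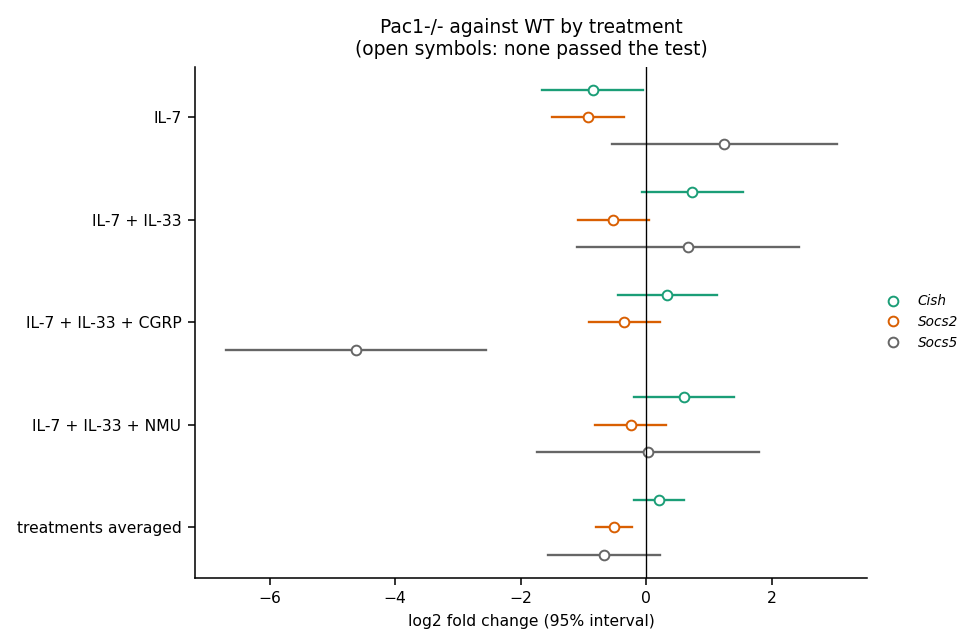
Log2 fold change of Pac1-/- against WT with its 95% interval for Cish, Socs2 and Socs5 in each treatment (2 libraries against 2) and averaged over treatments, all with open symbols because none passed the test. The Socs2 values lie below 0 in every row, and Socs5 with CGRP lies at -4.63.

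Between the genotypes, 3 genes of the cytokine list were called. Il9 was lower in Pac1-/- ILC2s by 1.52 on the log2 scale averaged over treatments (edgeR adjusted p = 0.0258) and by 5.55 with CGRP (adjusted p = 0.00435). With CGRP it had 428 and 137 counts in WT and 8 and 2 in Pac1-/- libraries. With NMU its unscaled counts were 21348 and 18720 in WT, the libraries with the fewest reads, and 50159 and 32589 in Pac1-/-. The NMU response of Il9 was larger in Pac1-/- ILC2s by 1.66, which edgeR did not call. The average over treatments is therefore not a value for each treatment. Il6 was higher by 2.87 with CGRP (adjusted p = 0.0347). Il3 with NMU had 1 count in each WT library and 809 and 602 counts in the Pac1-/- libraries, and it was called higher (adjusted p = 0.0237). No JAK, STAT, receptor, ligase partner or STAT target of the lists was called between the genotypes.

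Overlapping or near-identical genes touched 4 members. Gm17040 and Gm17041 lie on the opposite strand over Cish exons, with 0 to 111 and 0 counts per library against 217 to 1530 for Cish, and because the use of strand is not given, reads of Cish and these genes cannot be told apart there. Socs2 shares 599 bases at 99.5% identity with Gm9847 and 458 bases at 95.6% with Gm8000, which had 132 and 186 counts over all 16 libraries, where Socs2 had 524 to 3466 in each. Shorter stretches of Socs2, of 129 to 148 bases at up to 96.4% identity, matched further genes, of which Mia2 (22891 counts over all libraries), Sdhaf2 (18906), Cep57 (12380) and Ilf2 (11462) had the most, and how reads within such stretches were counted is not given in the sources used here. Socs4 shares 102 bases at 99.0% identity with Pcsk5 and 103 bases at 98.1% with Chl1, which had 111 and 96 counts. Socs6 shares 1006 bases at 96.7% identity with Gm9449, which had 1 count.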

How the data were processed

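The deposited counts are raw reads per Ensembl gene, which the authors made from mRNA-seq libraries amplified from about 500 ILC2s and aligned to mm10 with HISAT2. The counting tool, annotation release and use of strand are not given in the sources used here. Identifiers were matched to GENCODE M21 symbols (51633 of 51912 genes). Genotype and treatment came from the sample labels. Counts were analysed with edgeR 4.0.16 in R 4.3.3, using TMM scaling, filterByExpr by group (14979 genes left) and one quasi-likelihood fit to 8 group means. A gene was called at a fold above 1.5 and a Benjamini-Hochberg adjusted p under 0.05 over all genes tested. Each gene's log2 CPM for likeness used a prior count of 2. Near-identical stretches (at least 95% over 100 bases) were found with BLAST 2.17.0. DESeq2 1.42.0 (the authors used an earlier version of DESeq2), RLE scaling, other filters, the adjusted p alone, a replicate block, fits on only the libraries compared and leaving out each library were alternatives. The procedure was tested on simulated data. All 8 members are named. From the pathway lists, called genes are named by smallest p. The members and lists were chosen with earlier results of these data known. Some genes that these rules or marker lists select are not reported here.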

Additional observations from a re-analysis of the deposited data

Results flagged for a closer look

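In Socs5 and Socs7, the libraries of the genotypes differed in opposite directions in 1 response each, and neither difference passed edgeR's quasi-likelihood test. These were found by a search of 24 combinations of member and response, with 2 libraries a group. The share of all genes with such a pattern was not computed, so these cases are not read as a result about the members. For Socs5, both WT libraries were higher and both Pac1-/- libraries lower with CGRP than with IL-33, and the difference of the responses was -5.30 on the log2 scale (adjusted p = 0.442). Socs7 was at 1.34 and 0 CPM in WT and at 3.36 and 11.1 CPM in Pac1-/- libraries with IL-33. With NMU it was at 2.92 and 2.79 CPM in WT and at 2.49 and 2.43 CPM in Pac1-/- libraries. The difference of its NMU responses was -3.61 (95% interval -10.6 to 3.40, adjusted p = 0.9999), from libraries of 0 to 136 counts, so no direction is read from it.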

How the results depend on the processing

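The replicate numbers did not pair the libraries. Over 28 pairs of groups, the correlation of same-numbered libraries' deviations from their group means was -0.064 to 0.039, and with the replicate number as a block the genes called were 2 for IL-33 against IL-7 and 10 for the genotypes with CGRP, with no other count moved by over 1.5 times. Of 254 fold changes of members recomputed under other settings (37 results), 248 kept their direction and side of the threshold and 6 passed it. Of 288 with 1 library left out, 286 did so, 1 passed and 1 turned, the Socs2 difference of CGRP responses, which ranged from -0.0116 (without Pac1-/- IL-33 replicate 1) to 0.29. The Socs2 calls for CGRP against IL-33 and NMU against CGRP held in all 7 settings and without each of 8 libraries. Among these settings, the adjusted p alone drops only the fold cutoff of the main fit. It leaves every fold change and call in place, so it checks neither.

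DESeq2 called 1 member each for IL-33 against IL-7 (Cish), NMU against IL-33 (Socs2), the genotypes with CGRP and the difference of CGRP responses (both Socs5). Without a filter edgeR also called Socs5 in the last 2, 1 member each. Leaving out 1 library gave 0 to 1 members for the genotypes with CGRP, the 1 being Socs5 without WT CGRP replicate 2. The cause was not tested.

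Genes called with DESeq2 and with no filter were 299 and 199 for IL-33 against IL-7, 1290 and 845 for CGRP against IL-33, 216 and 116 for NMU against IL-33, 1868 and 1318 for NMU against CGRP, and 134 and 117 for the genotypes over treatments. They were 63 and 21 with IL-7, 27 and 26 with IL-33, 393 and 183 with CGRP and 47 and 39 with NMU for the genotypes, and 16 and 21, 120 and 70, and 24 and 53 for the differences of the IL-33, CGRP and NMU responses. With only the libraries compared, which for the genotypes over treatments is the fit over all libraries, there were 10, 199, 14 and 525 for the 4 treatment comparisons in the same order and 0 for the genotypes with CGRP. At least 10 counts in every library gave 53 for NMU against IL-33 and 2 for the genotypes with CGRP, and RLE scaling gave 5 for the genotypes with NMU.

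Leaving out 1 library, where a lone library is assumed to vary like the other groups, gave 5 to 62 genes for IL-33 against IL-7 (highest without Pac1-/- IL-7 replicate 2), 281 to 851 for CGRP against IL-33, 31 to 70 for NMU against IL-33 (highest without Pac1-/- IL-33 replicate 1) and 669 to 1238 for NMU against CGRP. It gave 17 to 103 for the genotypes over treatments, 1 to 18 with IL-7, 2 to 4 with IL-33, 66 to 237 with CGRP and 5 to 11 with NMU, and 0 to 6, 1 to 126 and 1 to 5 for the differences of the IL-33, CGRP and NMU responses. Without Pac1-/- CGRP replicate 1 came the highest counts of CGRP against IL-33, NMU against CGRP, the genotypes over treatments and with CGRP, and the CGRP responses.

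Per kb of the median transcript instead of merged exons, mean levels were 162 for Socs2, 27.9 for Cish, 10.6 for Socs5, 10.5 for Socs6, 9.32 for Socs4 and 1.75 for Socs3, in CPM per kb. With 2 libraries a group, members of few counts (Socs3, Socs6 and Socs7) allow no firm statement.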
